A study of Mus musculus with 4 samples.

Results

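The genes described here are 10 receptors, surface proteins and transcription factors of blood and endothelial progenitors, found by their symbols among the 22718 genes measured. They are Kdr, Flt1, Tek, Cdh5, Pecam1, Runx1, Tal1, Lmo2, Gata2 and Etv2, and all 10 were in the files. Mouse embryonic stem (ES) cells transcribed 8 of the 10 at an RPKM (reads scaled by gene length and library size) above 1 in the wild type library. In the library labelled Prep1-/-, Gata2, Flt1 and Kdr were at 0.536, 0.584 and 0.639 of the wild type RPKM, while Tek was 1.82-fold and Pecam1 1.42-fold higher. Runx1 was at 0.850, and the ratios of Tal1, Lmo2, Etv2 and Cdh5 had counting intervals that spanned 1. A Prep1 ChIP-seq peak lay inside, or within 20 kb of the start of, Tek, Gata2 and Etv2.

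Prep1, encoded by Pknox1, is a homeodomain protein of the TALE family that binds DNA with Pbx partners, and its loss is known to impair blood formation in the embryo. The study asked which genes Prep1 binds and which it affects in ES cells. RNA was sequenced from 1 wild type and 1 Prep1-/- ES line (the line the authors call KO2) of the C57BL/6 strain, both grown with leukemia inhibitory factor, which keeps ES cells undifferentiated. Prep1 binding was mapped in wild type ES cells with 1 chromatin immunoprecipitation against input DNA; the protocol names the R1 line, while the strain is labelled C57BL/6 there too. With 1 library from 1 line per genotype, line and genotype cannot be told apart, and every difference below is between these 2 libraries with no replicate check.

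Blood and endothelium arise together from mesoderm, through progenitors that carry the VEGF receptor Flk1 (Kdr). The ETS factor Etv2 switches on Kdr, Tal1 and other endothelial and blood genes in that mesoderm. Tal1 binds DNA with E proteins and is joined by Lmo2, Ldb1 and a Gata factor in a single complex, and Runx1, with its partner Cbfb, is needed for blood stem cells to leave the endothelium. Kdr and Flt1 bind VEGF, Tek (Tie2) binds angiopoietins, and Cdh5 (VE-cadherin) and Pecam1 (CD31) hold endothelial cells together. ES cells in culture can express Pecam1 and Kit without being blood or endothelium.

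Over all genes, 29596294 reads were counted in wild type and 25717811 in the library labelled Prep1-/-. The study's methods give fewer reads per sample than these sums, and what the deposited counts count was not settled, so the intervals given here may be too narrow. Pknox1 itself kept reads, 505 in wild type and 332 in the library labelled Prep1-/-, a ratio of 0.736 (95% interval 0.638 to 0.846). These reads measure RNA and not protein. From immunoblots, the paper reports that KO2 cells, like another knockout line, were without the Prep1 protein. Intervals are exact Clopper-Pearson intervals from the read counts and cover counting error only. The 8 ES cell markers, with Pou5f1, Nanog and Sox2 among them, summed to an RPKM of 1201 in wild type and 1469 in the library labelled Prep1-/-. The 6 markers of feeder fibroblasts summed to 99.2 and 115, of which Vim alone had 75.2 and 84.9. Among these 6, 3 had intervals above 1 and 3 spanned it, and Postn had 6 and 33 reads. All 4 early mesoderm markers (T, Mixl1, Mesp1 and Eomes) had intervals below 1 and summed to 27.8 and 8.24, and all 6 primitive endoderm markers had intervals below 1 and summed to 9.68 and 4.48. The mesoderm from which blood and endothelium derive thus had lower markers in the same library as Gata2, Flt1 and Kdr, and its part in those results was not tested. Of genes that mark endothelium and blood, Cdh5, the Tie receptor Tie1 and the leukocyte antigen Ptprc (CD45) had 2 to 6 reads in each library, whereas others were well above this, such as Eng with 2350 and 1640 reads, Plvap with 900 and 645 and Vwf with 55 and 258. In bulk RNA, fewer cells that express a gene and less RNA per cell cannot be told apart.

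**Figure D1:**
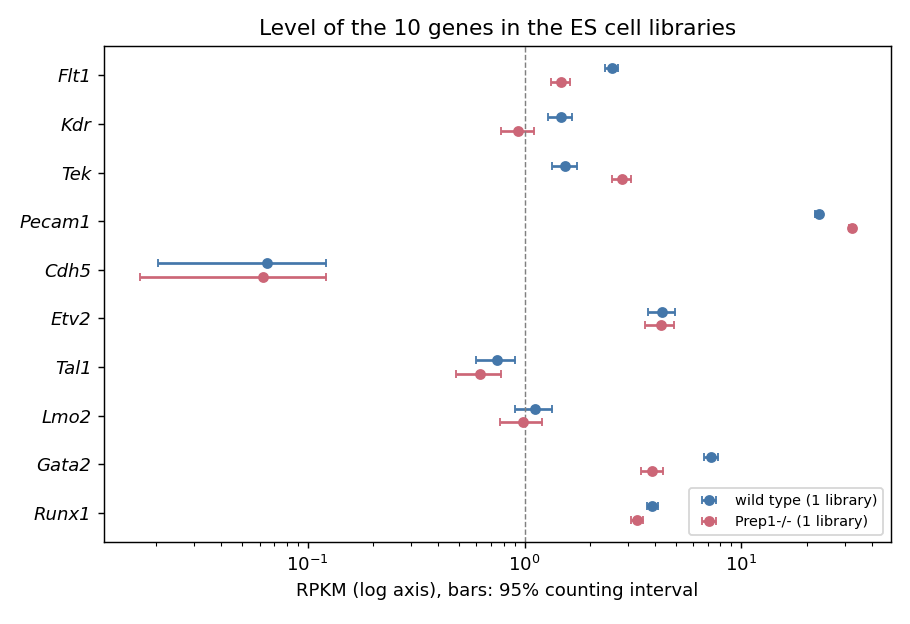
RPKM of the 10 genes in the wild type library and the library labelled Prep1-/-, on a log axis, with bars for the 95% counting interval of each read count and a dashed line at an RPKM of 1. Pecam1 stands above the other genes in both libraries (22.7 and 32.3) and Cdh5 below them (0.0649 and 0.0622).

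Levels per length spanned a wide range among the 10 genes. In wild type, Pecam1 came first with an RPKM of 22.7, followed by Gata2 with 7.25, Etv2 with 4.31, Runx1 with 3.89, Flt1 with 2.52, Tek with 1.54, Kdr with 1.47, Lmo2 with 1.12, Tal1 with 0.746 and Cdh5 with 0.0649. Neighbours in this order differed by more than counting error except Etv2 and Runx1, Tek and Kdr, and Kdr and Lmo2. In the library labelled Prep1-/-, Pecam1 was again first with an RPKM of 32.3, Etv2 (4.24) stood ahead of Gata2 (3.89), and Tek (2.81) stood ahead of Flt1 (1.47) and Kdr (0.937). There the counting intervals of Etv2 and Gata2, of Gata2 and Runx1, of Runx1 and Tek, and of Lmo2, Kdr and Tal1 as neighbours overlapped. Pecam1 alone held 47.5% of the 6553 wild type reads of the 10 genes and 61.9% of the 6397 reads in the library labelled Prep1-/-. Between them the 10 genes summed to an RPKM of 45.7 and 50.6, so a summed level hides members that differ in opposite directions.

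A gene was called lower with a KO/WT ratio (RPKM in the library labelled Prep1-/- over that in wild type) below 0.7 and a wild type RPKM above 1, and higher with a ratio above 1.5 where the library labelled Prep1-/- had an RPKM above 1. The ratio thresholds, and the RPKM of 1 as a floor, are those of the study. Which library had to pass that floor was set here, and the counts over all genes differ from the study's. Called lower were 3 of the 10 genes (Gata2, Flt1 and Kdr), against 8.39% of the 22633 genes with finite RPKM and 11.4% of the 10179 genes with as many reads as the 9 members other than Cdh5. Called higher was 1 of the 10 (Tek), against 4.35% and 4% of the same genes. Among the 14254 genes with RPKM above 1 in either library, 13.3% were called lower and 6.91% higher. By counting error alone, 4 members had intervals below 1 and 2 above, where 36.3% and 20.7% of those 14254 genes did so. The median log2 ratio of the 10 genes was -0.21, that of all genes -0.02 and that of the 14254 expressed genes -0.07.

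**Figure D2:**
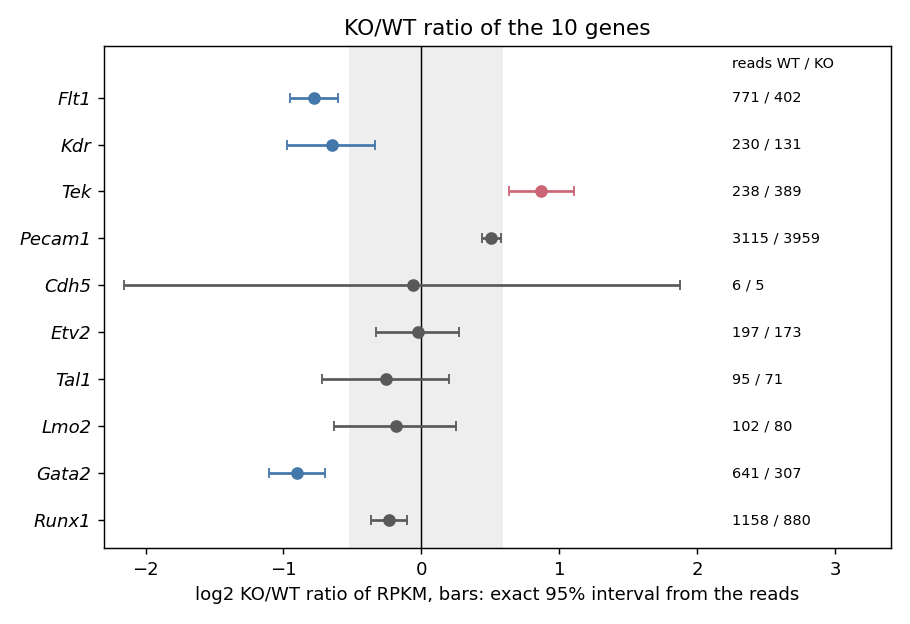
Log2 KO/WT ratio of RPKM for each of the 10 genes with its exact 95% counting interval, the reads in both libraries at the right, and a grey band for ratios from 0.7 to 1.5. Gata2, Flt1 and Kdr lie below the band, Tek lies above it, and the interval of Cdh5, with 6 and 5 reads, runs from a ratio of 0.225 to 3.66.

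The VEGF receptors Kdr and Flt1 were both lower in the library labelled Prep1-/-. Kdr, the main signalling receptor for VEGF-A, lies on the minus strand at chr5:76328852-76374483 (mm9), and had 230 reads in wild type and 131 in the library labelled Prep1-/-. Its RPKM was 1.47 and 0.937, a ratio of 0.639 (0.510 to 0.793), which crossed the RPKM of 1 used as a floor. Flt1 (VEGFR1), which binds VEGF-A and is also made as a soluble decoy, lies on the minus strand at chr5:148373180-148537587. It had 771 and 402 reads, and its RPKM of 2.52 and 1.47 gave a ratio of 0.584 (0.515 to 0.659). Ranked against the 13218 genes that passed an RPKM of 1 in each library, 4.23% had a lower ratio than Flt1 and 6.61% than Kdr. This base leaves out genes that failed the floor in one library, as Kdr itself did in the library labelled Prep1-/-. Flt1 and Kdr sit on the same chromosome, whose median ratio over 820 genes was 0.953. Within a library, the read count of Flt1 was 3.35 times that of Kdr in wild type and 3.07 times in the library labelled Prep1-/-, and the change of this quotient, 0.915 (0.711 to 1.18), spanned 1.

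The angiopoietin receptor Tek differed in the opposite direction from both VEGF receptors. Tek lies on the plus strand at chr4:94405980-94541667 and had 238 reads in wild type and 389 in the library labelled Prep1-/-. Its RPKM was 1.54 and 2.81, a ratio of 1.82 (1.55 to 2.16). A lower ratio was found in 97.8% of the 13218 genes that passed an RPKM of 1 in each library. Tek and Kdr had nearly equal read counts in wild type, with a quotient of 1.03, which was 2.97 in the library labelled Prep1-/-. This quotient needs no scaling between libraries, and it was 2.87-fold higher (2.17 to 3.79) in the library labelled Prep1-/-. The quotient of Tek over Flt1 went from 0.309 to 0.968, a 3.13-fold difference (2.55 to 3.85). These and the other quotients given here are 9 pairs in all, chosen after the values were seen.

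A Prep1 peak lay in an intron of Tek, at chr4:94452175-94452732 (mm9), 46.5 kb downstream of the gene's start. Its fold enrichment over input was 8, while the median of the 3902 peaks was 21, and 1.33% of the peaks had a lower value. The peak was searched on both strands for a Prep1-Pbx binding motif (TGA, any base, then TGACAG), allowing at most 1 mismatch over its 9 defined bases. It held 1 match, to 8 of the 9 bases and on the minus strand, at chr4:94452460-94452469, which is 11 bp from the middle of the peak. The middle of the peak is printed because it is the part of a lengthy intron that Prep1 occupied in the only receptor gene of the set with a peak. The capitals mark the match, which reads as the reverse complement on the plus strand shown, chr4:94452385-94452544.
Tek intron: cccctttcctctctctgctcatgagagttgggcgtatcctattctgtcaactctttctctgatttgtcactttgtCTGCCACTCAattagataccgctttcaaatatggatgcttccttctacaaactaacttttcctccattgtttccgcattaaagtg

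The ligands and partners of these receptors, a list of 13 genes of the VEGF and Tie pathway, had a median log2 ratio of 0.14, or 0.21 over the 12 with more than 3 reads in either library. In this list 1 of 13 was called lower and none higher, against 8.39% and 4.35% of all genes with finite RPKM. The gene called lower was Pgf, placental growth factor, a ligand of Flt1, with 125 and 54 reads and a ratio of 0.488 (0.344 to 0.670). Vegfa, the ligand of both Kdr and Flt1, had 2175 and 2143 reads and an RPKM of 24.5 and 27.0, a ratio of 1.10 (1.04 to 1.17). Vegfb, which binds Flt1, had an RPKM of 41.4 and 35.8, a ratio of 0.866 (0.796 to 0.941). The VEGF coreceptor Nrp2 led the list in reads, with 6191 and 6742 and a ratio of 1.22 (1.18 to 1.26). Flt4 (VEGFR3), the receptor of lymphatic endothelium, had 310 and 233 reads and a ratio of 0.841 (0.706 to 0.999). Its reads were 1.35 times those of Kdr in wild type and 1.78 times in the library labelled Prep1-/-, and the interval of that difference, 0.995 to 1.75, spanned 1. Receptors and ligands of the VEGF system were thus both transcribed in these ES cells, whereas the Tek ligands Angpt1, with 4 and 7 reads, and Angpt2, with 15 and 22 reads, were near the floor of detection.

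Of the adhesion genes, Pecam1 was abundant and Cdh5 was barely detected. Pecam1 lies on the minus strand at chr11:106515531-106611942 and had 3115 reads in wild type and 3959 in the library labelled Prep1-/-. The RPKM was 22.7 and 32.3, higher than that of 79.9% and 85.4% of all genes. The ratio was 1.42 (1.36 to 1.49), under the threshold of 1.5, and the median ratio of the 1147 genes on its chromosome was 1.03. Cdh5, at chr8:106625525-106668402 on the plus strand, had 6 and 5 reads, and its ratio of 0.958 (0.225 to 3.66) gives no direction at this depth. The 702 genes on chromosome 8 with RPKM above 1 in both libraries had a median ratio of 0.779. This median was lower than that of any other chromosome that holds one of the 10 genes. Relative to Kdr, Pecam1 reads went from 13.5-fold to 30.2-fold, a 2.23-fold difference (1.78 to 2.80). The ES cell markers moved with Pecam1, with 7 of 8 having intervals above 1, and their part in the result was not tested.

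The other 15 endothelial surface genes had a median log2 ratio of -0.36. In this list 1 was called lower and 2 higher, against 8.39% and 4.35% of all genes with finite RPKM. Cd34, a sialomucin of blood stem cells and endothelium, had 134 and 79 reads and was lower, with a ratio of 0.663 (0.493 to 0.877). Vwf, the clotting factor stored in endothelium, had 55 and 258 reads and was 5.17-fold higher (3.91 to 7.15), at an RPKM of 0.197 and 1.02. Robo4, an endothelial guidance receptor, had 143 and 412 reads and was 3.21-fold higher (2.66 to 3.92). The genes with the most reads were Mcam (4170 and 2872 reads, ratio 0.770), Ephb4 (3006 and 2175 reads, ratio 0.809) and the TGF-beta coreceptor Eng (2350 and 1640 reads, ratio 0.780). Of the 15 genes, 11 had ratios below 1, with 7 intervals below 1, 3 above and 5 spanning it. Of the 14254 genes with RPKM above 1 in either library, 8353 had ratios below 1, and 36.3% had intervals below 1 and 20.7% above. Efnb2 and Plvap, with intervals below 1, were at 0.994 and 1.03 relative to the median of their chromosome, 8. Vwf and Robo4 passed the RPKM filter only through the library in which they were higher.

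Gata2 had the lowest ratio of the 10 genes. This zinc finger factor, needed for the growth of blood stem and progenitor cells, lies on the plus strand at chr6:88143885-88157024. It had 641 reads in wild type and 307 in the library labelled Prep1-/-, and an RPKM of 7.25 and 3.89. The ratio was 0.536 (0.466 to 0.615). A lower one was found in 2.47% of the 13218 genes that passed an RPKM of 1 in each library. The median ratio of the 608 such genes on its chromosome was 1.01. Gata1, the erythroid member of the family, had 44 and 43 reads and a ratio of 1.09.

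Gata2 was also the member with a Prep1 peak nearest to its start. The peak, at chr6:88139531-88140265, lay between genes, 3.99 kb upstream of the start of Gata2, which was the nearest start of a protein-coding gene. Its fold enrichment was 20, near the median of 21, and 46.9% of the peaks had a lower value. The peak held 1 match to 8 of the 9 defined bases of this motif, on the minus strand at chr6:88139893-88139902, at the middle of the peak. The window is shown because it joins the lowest ratio of the set with the nearest peak; it is chr6:88139818-88139977 on the plus strand, with the match in capitals.
Gata2 upstream: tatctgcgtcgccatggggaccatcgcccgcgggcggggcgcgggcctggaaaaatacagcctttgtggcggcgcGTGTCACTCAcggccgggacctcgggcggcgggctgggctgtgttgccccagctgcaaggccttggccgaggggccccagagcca

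**Figure D3:**
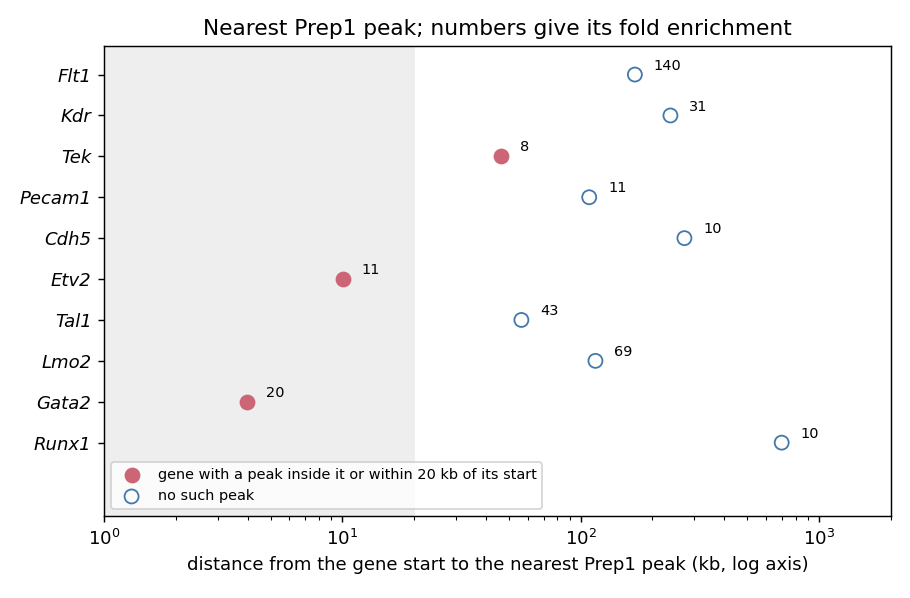
Distance in kb, on a log axis, from the start of each of the 10 genes to the nearest Prep1 peak in wild type ES cells, with the fold enrichment of that peak printed beside it. Filled points are genes with a peak inside them or within 20 kb of their start, and the grey area covers distances up to 20 kb; Gata2 is nearest at 3.99 kb and Runx1 farthest at 699 kb.

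Runx1, the core binding factor subunit of blood stem cell emergence, was modestly lower. It lies on the minus strand at chr16:92601712-92826311 and had 1158 and 880 reads, with an RPKM of 3.89 and 3.30 and a ratio of 0.850 (0.778 to 0.928). Another gene, Gm16801, shares exon bases with Runx1, and the library kit did not mark strand. Reads over the shared bases therefore cannot be assigned to Runx1 with certainty. Its partner Cbfb had 3436 and 2507 reads and a ratio of 0.816 (0.775 to 0.859), but 1.05 relative to the median of its chromosome, 8, so no direction is given for it. The quotient of Runx1 over Cbfb reads was 0.337 in wild type and 0.351 in the library labelled Prep1-/-, a difference of 1.04 (0.940 to 1.15) that spanned 1. The quotient of Gata2 over Runx1 reads went from 0.554 to 0.349, a difference of 0.630 (0.534 to 0.743). The KO/WT ratio of Gata2 was thus below that of Runx1 by more than counting error.

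The Tal1 and Lmo2 genes, whose products act in one complex, had low levels and ratios that cannot be told from 1. Tal1, at chr4:114729031-114744360 on the plus strand, had 95 and 71 reads and an RPKM of 0.746 and 0.626, with a ratio of 0.839 (0.606 to 1.15). Lmo2, at chr2:103798143-103822035 on the plus strand, had 102 and 80 reads and an RPKM of 1.12 and 0.983, with a ratio of 0.879 (0.646 to 1.19). Their quotient was 0.931 and 0.888, a difference of 0.953 (0.609 to 1.49). Gata2 reads over Tal1 reads went from 6.75 to 4.32, a difference of 0.641 (0.452 to 0.912).

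Etv2, an ETS factor at the start of the endothelial and blood programme, did not differ between the libraries beyond counting error. It lies on the minus strand at chr7:31418635-31421308 and had 197 and 173 reads, an RPKM of 4.31 and 4.24 and a ratio of 0.983 (0.796 to 1.21). The interval leaves room for a level about as low as 0.796 or as high as 1.21 times that of wild type. Among the other ETS factors, Ets2 had an RPKM of 14.2 and 16.1, Elk3 one of 13.5 and 14.3 and Ets1 one of 4.05 and 2.92, whereas the endothelial factors Fli1 (6 and 2 reads) and Erg (21 and 21 reads) were at an RPKM of 0.11 or less. Etv2 was therefore transcribed at about the level of Ets1 in wild type, with Fli1 and Erg near the floor.

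Etv2 had 2 Prep1 peaks within 20 kb of its start, and each lay at the start of a neighbouring gene. The peak at chr7:31410976-31411502, with a fold enrichment of 11, had its middle 0.069 kb upstream of the start of Cox6b1, a subunit of cytochrome c oxidase, and 10069 bp from that of Etv2. The peak at chr7:31434916-31435697, with a fold enrichment of 16, lay in an exon of Rbm42, an RNA-binding protein, with its middle 30 bp from the start of Rbm42 and at position -13998 bp, upstream, from that of Etv2. Cox6b1 had a ratio of 0.864 and Rbm42 one of 0.910. Neither peak held a match to the Prep1-Pbx motif with at most 1 mismatch.

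Peaks near 3 of the 10 genes compare with peaks near 20.8% of the 21446 genes that could be placed. The 3 genes with a peak were 1 called lower (Gata2), 1 called higher (Tek) and 1 with a ratio near 1 (Etv2), so the peaks did not go with a single direction among these genes. The nearest peaks to the others lay 56.4 kb from the start of Tal1, 109 kb from Pecam1, 115 kb from Lmo2, 169 kb from Flt1, 238 kb from Kdr, 273 kb from Cdh5 and 699 kb from Runx1. Of all peaks, 24.3% held the Prep1-Pbx motif exactly and 63.4% with at most 1 mismatch. Of 32851 RefSeq promoters (GRCm38.p6, 250 bases before to 50 after the start), 0.874% held it exactly and 9.40% with at most 1 mismatch. The promoter table held 10 promoters of 7 of the genes, of which none had the exact motif and 1, of Runx1, a match with at most 1 mismatch. The protocol names the R1 line for the ChIP, and the peak list used here is from wild type cells.

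The partners of Tal1, Gata2 and Runx1, with other blood transcription factors, form a list of 18 genes with a median log2 ratio of -0.18. Of all genes with finite RPKM, 8.39% were called lower and 4.35% higher, and of expressed genes 13.3% and 6.91%. In this list, 5 of 18 were called lower and 1 higher. Those called lower were Lmo4 (5187 and 2646 reads, ratio 0.570), the Gata cofactor Zfpm1 (1731 and 951 reads, ratio 0.615), Runx3 (206 and 69 reads, ratio 0.378), Lmo1 (57 and 9 reads, ratio 0.193) and the erythroid factor Klf1. Klf1 had 49 and 30 reads, and its interval of 0.420 to 1.10 spanned 1. Zfpm1 and Klf1 lie on chromosome 8, and relative to that chromosome's median their ratios were 0.789 and 0.890, so that neither was called. The gene called higher was Myb, needed for adult-type blood formation, with 209 and 299 reads and a ratio of 1.60 (1.34 to 1.92). The Lim-domain binding protein Ldb1 had 5953 and 5851 reads and a ratio of 1.10. The E protein gene Tcf3, under the symbol Tcfe2a, led the list with 17138 and 12774 reads, at a ratio of 0.833 (0.814 to 0.853). Lmo1, Runx3 and Klf1 passed the RPKM filter only through wild type, the library in which they were higher. In the Lmo family, Lmo1 and Lmo4 were called lower and Lmo2 was not told from 1. In the Runx family, Runx3 was at 0.378 and Runx1 at 0.850.

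The list of 10 ETS, Sox and other endothelial factors had a median log2 ratio of -0.02. In it 1 was called lower and none higher, against 8.39% and 4.35% of all genes with finite RPKM. The gene called lower was Sox18, a factor of vessel and lymphatic growth, with 196 and 111 reads and a ratio of 0.636 (0.497 to 0.803). Klf2, a flow-responsive endothelial factor, led the list with 4765 and 5327 reads, at a ratio of 1.25, and was called higher only relative to the median of its chromosome, 8. Of 9 blood cell genes, 4 had an RPKM above 1 in either library and 2 were called lower. Of all genes with finite RPKM 8.39% were called lower, and of expressed genes 13.3%. The list's median log2 ratio of -1.06 is the value of Ptprc, which had 6 and 2 reads, so it says little of the list. The 2 called lower were the erythropoietin receptor Epor (242 and 73 reads, ratio 0.341, 0.256 to 0.440) and the platelet integrin Itga2b, or CD41. Itga2b had 70 and 28 reads and a ratio of 0.457 (0.278 to 0.702), and passed the RPKM filter only through wild type, where it was higher. The stem cell factor receptor Kit, which lies near Kdr on the genome, had 1813 and 2020 reads and a ratio of 1.25 (1.17 to 1.33).

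The embryonic globins were seen in the library labelled Prep1-/- alone. Hba-x (zeta globin) had 0 and 138 reads, Hbb-y (epsilon) 0 and 107, and Hbb-bh1 (beta h1) 0 and 22. Against a floor of 3 wild type reads these are 51.4-fold, 39.9-fold and 8.2-fold higher. Their exact counting intervals start lower, at 41.3, 31.9 and 6.12, and have no upper end. These genes mark primitive red cells, while the erythroid factors Gata1 and Klf1 were not called higher. The adult globins had 0 to 8 reads, and AC131116.3, an adult beta globin, was called higher with 5 and 8 reads and an interval of 0.516 to 6.95; the adult copies are nearly identical, so their counts are uncertain. In all, 4 of 6 globins were called higher, against 4.35% of all genes with finite RPKM. Each of these 4 passed the RPKM filter only through the library in which it was higher. The median log2 ratio of the 4 with more than 3 reads in either library was 4.18. Those with 0 wild type reads entered it at their fold against the floor of 3 reads.

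**Figure D4:**
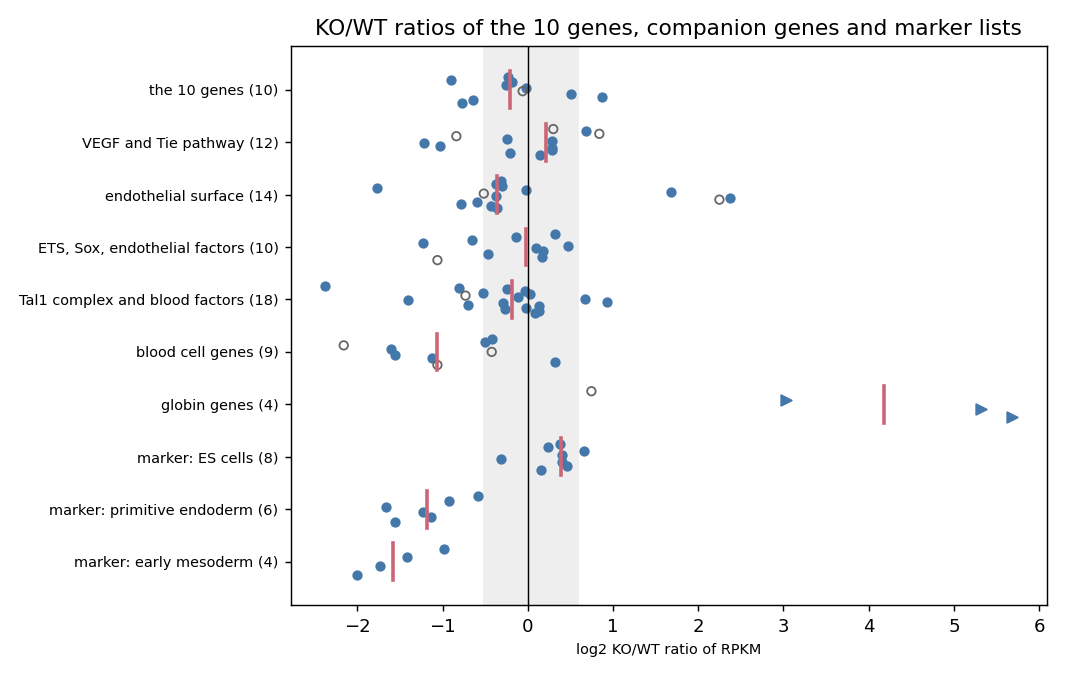
Log2 KO/WT ratio of RPKM for the 10 genes, the companion lists and the marker lists other than feeder fibroblasts, with the number of genes plotted in brackets, a red bar at each median and a grey band for ratios from 0.7 to 1.5. Open circles are genes with fewer than 20 reads in all, and genes with 3 or fewer reads in both libraries are left out. Triangles are genes with 0 wild type reads, placed at their fold against a floor of 3 reads. The medians run from -1.58 for early mesoderm to 4.18 for the globins.

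Across the 71 companion genes found, 42 of which had an RPKM above 1 in either library, 10 were called lower and 7 higher. The median log2 ratio was -0.25. Lmo1, Runx3, Klf1, Itga2b, Vwf, Robo4 and the globins called higher passed the RPKM filter only through the library in which they were higher. Over all genes with finite RPKM the shares called were 8.39% and 4.35%, and over expressed genes 13.3% and 6.91%. Of the 71 companion genes, 17 (23.9%) had a Prep1 peak inside or within 20 kb of the start, next to 20.8% of all genes. At the starts of companions, Efnb2, the arterial ephrin, had a peak 191 bp upstream with a fold enrichment of 85, Tcfe2a one 436 bp upstream with 60 and Lmo4 one 413 bp upstream with 35. A peak with a fold enrichment of 109 lay 7560 bp downstream of the start of Epor, above the enrichment of each peak at Tek, Gata2 and Etv2. Whether that peak lies nearer to the start of another gene was not examined.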

How the data were processed

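Polyadenylated RNA of 1 wild type and 1 Prep1-/- ES library was prepared with a kit that does not mark strand and read from both ends over 50 bp, and the authors assigned the reads to Ensembl release 63 with RSEM and used DESeq, on mm9. The authors deposited for each gene a read count, a whole number without normalization, and an RPKM value, which divides reads by gene length and library size. RPKM was not finite for 85 genes. The RPKM ratio was 1.12 times the quotient of the counts plus 1 in every gene, so intervals were made from the counts and this factor. For ChIP-seq (reads of 36 bp), the authors used BWA and MACS against input and deposited 3902 peaks on mm9 with a score, the fold enrichment in whole numbers. Tool versions are not given in the sources used here, and the input DNA was not analysed here.

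With 1 library per genotype no test between genotypes was run, and calls are folds past a threshold. Peaks inside a gene or within 20 kb of its start were counted with GENCODE M1 (NCBIM37, that is mm9), in which 21446 genes were found. Every gene of the set is named, with the companion genes past a threshold or with the most reads in their list, others serving as context. The genes, the companion lists and the markers were chosen with earlier results of these data known, and the motif and the pairs after values were seen. Of 72 companion genes listed, 71 were found. Some of these are given only within their list's counts, with values not reported here. Alternatives were other scalings, pseudocounts, filters, thresholds and peak distances. The calls and intervals were checked on simulated counts only, which is no test of the genotypes. Python 3.11.15, scipy 1.17.1, pandas 2.3.3, matplotlib 3.10.9 and numpy 2.4.6 were used.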

Additional observations from a re-analysis of the deposited data

How the results depend on the processing

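No paired analysis was possible because each genotype has 1 library. Scaling by summed reads, by the median ratio or by chromosome medians kept Gata2, Flt1 and Kdr called lower and Tek called higher; the ratios of Etv2 and Cdh5, neither of them called, changed side of 1 under some of these. With chromosome medians, 8 companions were lower (Zfpm1 and Klf1, both on chromosome 8, lost) and 9 higher (Vegfc and Klf2, also on chromosome 8, gained). A pseudocount of 1 RPKM gave 0.702 for Flt1 and 1.4997 for Tek, with 1 member called lower, 0 higher and 6 companions lower. Thresholds of 0.5 and 2 called 0 members lower, 0 higher and 5 companions lower. Without the RPKM filter, 22 companions were lower and 12 higher. Peaks within 5 kb of the start were at 1 of the 10 members (Gata2), against 10.7% of all genes placed. The upper part of the peaks by enrichment, above the median, was at 0 members, against 12% of those genes. With the distance widened to 50 kb, 3 of the 10 members had a peak, against 32.5%. Of 50 member values under alternatives, 48 stayed within their main counting interval, and no member called lower or higher changed side of 1. Read depth limits Cdh5, Tal1 and Lmo2.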
